A study of Homo sapiens with 20 samples.

Results

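Far intergenic H3K27ac peak regions are stretches of acetylated chromatin that lie outside every protein-coding gene and at a distance from every protein-coding start. The peak lists of all 16 libraries were merged on chromosomes 1 to 22 and X wherever peaks overlapped by at least 1 bp, which gave 58859 regions. A region was a member when it overlapped no protein-coding gene body of GENCODE version 44 and lay over 50 kb from the canonical start site of every protein-coding gene. In all, 11356 regions met the rule, or 19.3% of the 58859. The others comprised 14595 start-site regions within 1 kb of a canonical start, 22249 gene-body distal regions and 10659 near intergenic regions. Just inside the limit lay members 50003 bp from the start of SLC2A1, a glucose transporter gene, called in 14 libraries, 50011 bp from IRF2BPL and 50012 bp from ARC, each of the latter in 1 library. Just outside it lay regions 50000 bp from PPP2R5A in 5 libraries, 49996 bp from TOMM20 and 49992 bp from SYPL1, each of the latter in 1 library.

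The cells were HCT-116, a human colorectal cancer line, either wild type (WT) or FBXW7-/- (KO). They were transfected for 48 h with control esiRNAs (esiCT) or esiRNAs against HDAC4 (esiHDAC4), which are pools of short interfering RNAs made by enzymatic digestion, and were untreated (UNT) or received oxaliplatin (OXPT), a platinum drug, at 50 µM for the last 24 h. The 8 groups were WT esiCT UNT, WT esiCT OXPT, WT esiHDAC4 UNT, WT esiHDAC4 OXPT, KO esiCT UNT, KO esiCT OXPT, KO esiHDAC4 UNT and KO esiHDAC4 OXPT, with 1 library of replicate A and 1 of replicate B each. All groups, the controls included, were transfected with an esiRNA pool. The labels say that independent experiments were pooled, without tying them to the letters, so p-values measure the spread between these libraries. The sources used here do not give whether the KO line is 1 clone. Of 8 epithelial marker genes, 7 had a peak within 1 kb of the start in 8 to 16 libraries, and VIL1, an intestinal villus gene, had one in 0. Of 10 marker genes of blood, endothelial, fibroblast, liver and glial cells, 9 had such a peak in 0 libraries and COL1A1 in 3.

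H3K27ac is laid down on nucleosomes that flank active promoters and active enhancers, and enhancers can act on promoters over long distances through looping of the chromatin. Gene deserts, long stretches without a protein-coding gene, can hold such distant enhancers, which often lie beside genes for developmental regulators and growth control, and they can also hold the starts of long noncoding RNAs (lncRNAs). Clusters of strong enhancers joined by ranking their signal are called super-enhancers (SEs). FBXW7 is the substrate receptor of an SCF ubiquitin ligase that marks MYC, cyclin E, JUN, NOTCH and other proteins for degradation. HDAC4 is a class IIa histone deacetylase that works mainly as a corepressor, and oxaliplatin forms DNA adducts that block replication and transcription.

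The sequences under 5 members are shown because the results below turn on them. Each is the 300 bp window around the summit of the member's peak with the highest −log10 q, read from the hg38 genome on the plus strand, 5′ to 3′. Capitals mark letters that match one of the searched motifs on either strand, which were AP-1 (TGANTCA), TCF/LEF (CTTTGAT, or the same with A as its final letter), FOXA (TGTTTNC), HNF4A (CAAAGTNCA), TEAD (GGAATG), RUNX (TGTGGT) and KLF/SP (GGGCGG), beside CTCF, MEF2 and the full p53 site. For the GATA family of factors the letters searched were AGATAA. The windows beside KITLG and in MIR31HG and LINC-PINT belong to the 3 widest members, which were called in all 16 libraries. The window in MANCR belongs to a member called in all 8 WT libraries and in 0 KO libraries, and the window beside TGFBR2 to a member called in all 8 OXPT libraries and in 0 UNT libraries. The KITLG window held the FOXA and TEAD letters, the MIR31HG window the TCF/LEF letters, the LINC-PINT window the AP-1 and FOXA letters, the MANCR window the TCF/LEF letters, and the TGFBR2 window the FOXA, GATA and TEAD letters. A match is a description of the letters and not evidence of binding.
KITLG member, chr12:88934979-88935278: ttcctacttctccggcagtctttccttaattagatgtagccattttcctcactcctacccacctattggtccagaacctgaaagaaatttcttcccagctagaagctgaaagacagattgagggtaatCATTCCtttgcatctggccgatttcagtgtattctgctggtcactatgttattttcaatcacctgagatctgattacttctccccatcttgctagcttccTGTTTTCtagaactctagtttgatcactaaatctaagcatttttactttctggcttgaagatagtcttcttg
MIR31HG member, chr9:21590248-21590547: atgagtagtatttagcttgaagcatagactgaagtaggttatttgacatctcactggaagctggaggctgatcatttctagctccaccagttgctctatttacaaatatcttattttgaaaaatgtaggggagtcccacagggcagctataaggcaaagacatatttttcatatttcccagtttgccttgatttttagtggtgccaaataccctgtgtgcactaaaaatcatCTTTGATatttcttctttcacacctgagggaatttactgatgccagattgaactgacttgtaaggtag
LINC-PINT member, chr7:130886964-130887263: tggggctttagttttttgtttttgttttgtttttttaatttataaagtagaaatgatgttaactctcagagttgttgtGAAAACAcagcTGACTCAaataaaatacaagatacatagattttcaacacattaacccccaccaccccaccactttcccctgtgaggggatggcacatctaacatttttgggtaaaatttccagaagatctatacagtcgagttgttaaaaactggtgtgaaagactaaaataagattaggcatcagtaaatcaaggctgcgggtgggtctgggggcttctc
MANCR member, chr10:4663923-4664222: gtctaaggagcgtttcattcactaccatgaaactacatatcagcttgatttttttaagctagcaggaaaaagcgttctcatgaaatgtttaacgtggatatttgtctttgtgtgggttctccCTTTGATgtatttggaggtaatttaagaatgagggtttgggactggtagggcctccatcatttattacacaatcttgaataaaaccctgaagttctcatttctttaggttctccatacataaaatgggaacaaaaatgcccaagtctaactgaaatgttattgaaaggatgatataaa
TGFBR2 member, chr3:30227644-30227943: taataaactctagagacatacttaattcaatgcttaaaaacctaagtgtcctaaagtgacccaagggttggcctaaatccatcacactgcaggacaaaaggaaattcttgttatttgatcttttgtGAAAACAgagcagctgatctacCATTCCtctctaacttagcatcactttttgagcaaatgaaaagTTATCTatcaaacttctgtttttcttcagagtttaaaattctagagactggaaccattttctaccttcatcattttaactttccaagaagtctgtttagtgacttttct

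Most members were called in few libraries. Of the 11356, 7359 (64.8%) were called in 1 library, 2926 in 2 to 7, and 1071 (9.43%) in 8 or more. The 127 members called in all 16 libraries made up 1.12% of members, beside 0.966% of start-site regions, 0.620% of gene-body distal regions and 0.619% of near intergenic regions. Recurrent members were wider and stronger. The median region width was 333 bp for members called in 1 library, 689 bp for those in 2 to 7 and 2277 bp for those in 8 or more, and the median summit fold over local background was 3.47, 3.73 and 4.46. Merging more peaks widens a region, so width and recurrence are not independent. Members in 8 or more libraries overlapped an SE of some library in 64.8% of cases, beside 58.5% of gene-body distal, 58.6% of near intergenic and 6.07% of start-site regions with the same recurrence. They lay within 1 kb of a lncRNA start in 17.6% of cases and over a lncRNA gene body in 48.9%, whereas members in 1 library did so in 3.59% and 32.8%. Near intergenic regions showed a like rise, with 25.1% and 38.1% in 8 or more libraries and 4.98% and 21.0% in 1 library.

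**Figure D1:**
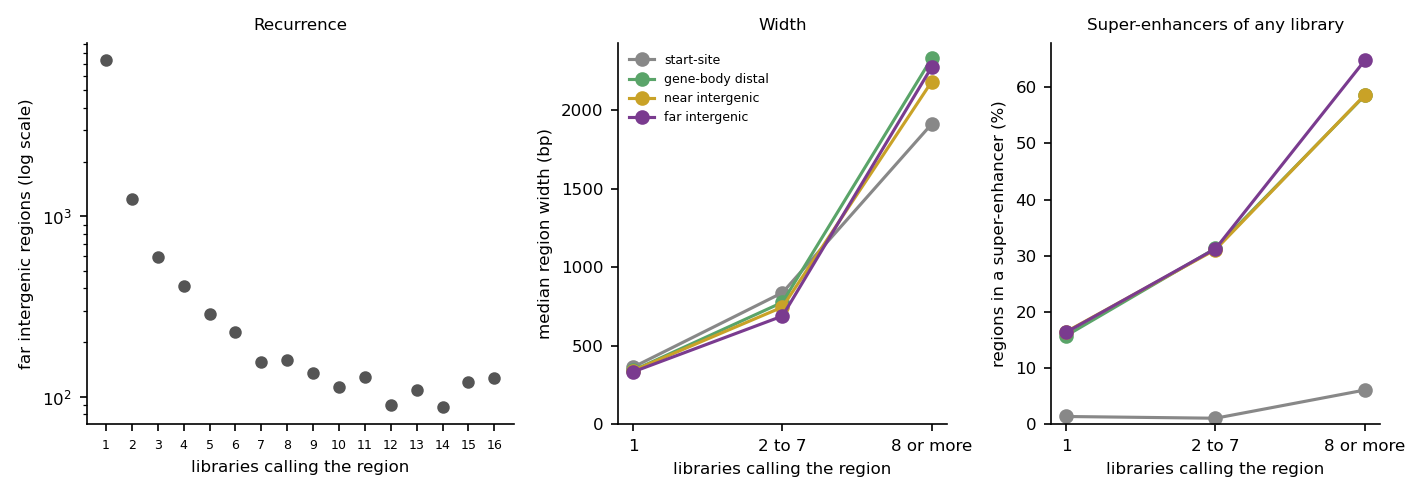
Left, number of far intergenic regions (log axis) by the number of libraries that called them; middle and right, median region width (bp) and percent of regions in a super-enhancer of any library, for the 4 classes of region called in 1, 2 to 7 or 8 or more libraries. The far intergenic line ends at 2277 bp and 64.8%.

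Members lay a median of 149.2 kb from the nearest canonical protein-coding start. Between 50 and 100 kb lay 3717 members, between 100 and 200 kb 3254, between 200 and 500 kb 2351, between 500 and 1000 kb 866, and 1168 lay farther away. The share called in 8 or more libraries was 10.1% in the nearest of these intervals and 6.42% in the farthest. Members formed 30.6% of all regions on chromosome 5 and 5.51% on chromosome 19. Per Mb of chromosome, members were most frequent on chromosome 9 (5.33) and least on X (0.891), where 81 of the 139 members fell in a single desert.

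The 10 members called in most libraries, ranked by median summit fold, were all called in 16 of 16 libraries, and the central 25 bases of each window occurred at 1 place in hg38. The KITLG member, chr12:88917472-88972105, spanned 54634 bp and lay 337 kb from the start of KITLG, which encodes the ligand of the KIT receptor. In WT libraries its summit fold was 9.34 and 9.93 in esiCT UNT (A and B), 7.07 and 7.18 in esiCT OXPT, 9.80 and 9.13 in esiHDAC4 UNT, and 6.43 and 7.69 in esiHDAC4 OXPT. In KO libraries it was 9.93 and 9.37 in esiCT UNT, 10.6 and 8.51 in esiCT OXPT, 10.7 and 8.68 in esiHDAC4 UNT, and 8.40 and 6.96 in esiHDAC4 OXPT. The 4 WT OXPT libraries were therefore lower than the 4 WT UNT libraries, without overlap, while UNT and OXPT overlapped in KO. These are levels in single peak lists, described without a test, and the member lay in an SE of all 16 libraries.

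The MIR31HG member, chr9:21542689-21596625, was 53937 bp wide and lay 60.4 kb from IFNE, an interferon gene, over the start of MIR31HG, the lncRNA that hosts miR-31. In WT libraries its fold was 8.04 and 10.3 in esiCT UNT, 6.42 and 6.21 in esiCT OXPT, 8.53 and 8.74 in esiHDAC4 UNT, and 6.93 and 6.70 in esiHDAC4 OXPT. In KO libraries it was 8.07 and 10.0 in esiCT UNT, 9.84 and 9.11 in esiCT OXPT, 10.5 and 7.05 in esiHDAC4 UNT, and 7.99 and 8.53 in esiHDAC4 OXPT. Here too WT OXPT lay below WT UNT without overlap and KO overlapped. In the other 8 of the 10 members UNT and OXPT overlapped within WT, and in all 10 they overlapped within KO. How often other regions showed the same order was not counted, so it cannot be read as particular to these members. On the same arm of chromosome 9 lay the member chr9:21667218-21695155, 107 kb from MTAP, a methionine salvage enzyme gene, with a fold of 6.72 to 12.1 and a median of 8.74.

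The LINC-PINT member, chr7:130882488-130926158, was 43671 bp wide, lay 148 kb from KLF14 within LINC-PINT, a lncRNA gene known as a p53 target, and had a fold between 6.25 and 10.00 with a median of 8.02. A neighbouring member in the same lncRNA gene, chr7:130984104-131005875, had a median of 7.76. Other lncRNA genes held members of this set, namely MIR100HG, host of a microRNA cluster, at chr11:122167241-122197109 with a median fold of 8.54, LINC00973 at chr3:98957257-98987397 beside DCBLD2 with 8.08, and unnamed lncRNAs at chr12:75691242-75730436 beside KRR1 with 8.02. The remaining members were the adjoining regions chr2:181784927-181795689 beside ITPRID2, with 7.87, and chr2:181774026-181784684 beside NEUROD1, a neuroendocrine transcription factor gene, with 7.85. Of the 10 members, 7 lay in an SE of all 16 libraries, and the others, at MIR100HG and the pair in LINC-PINT, in an SE of 10, 13 and 15. The nearest gene is a label of position, and which gene each region acts on was not measured.

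**Figure D2:**
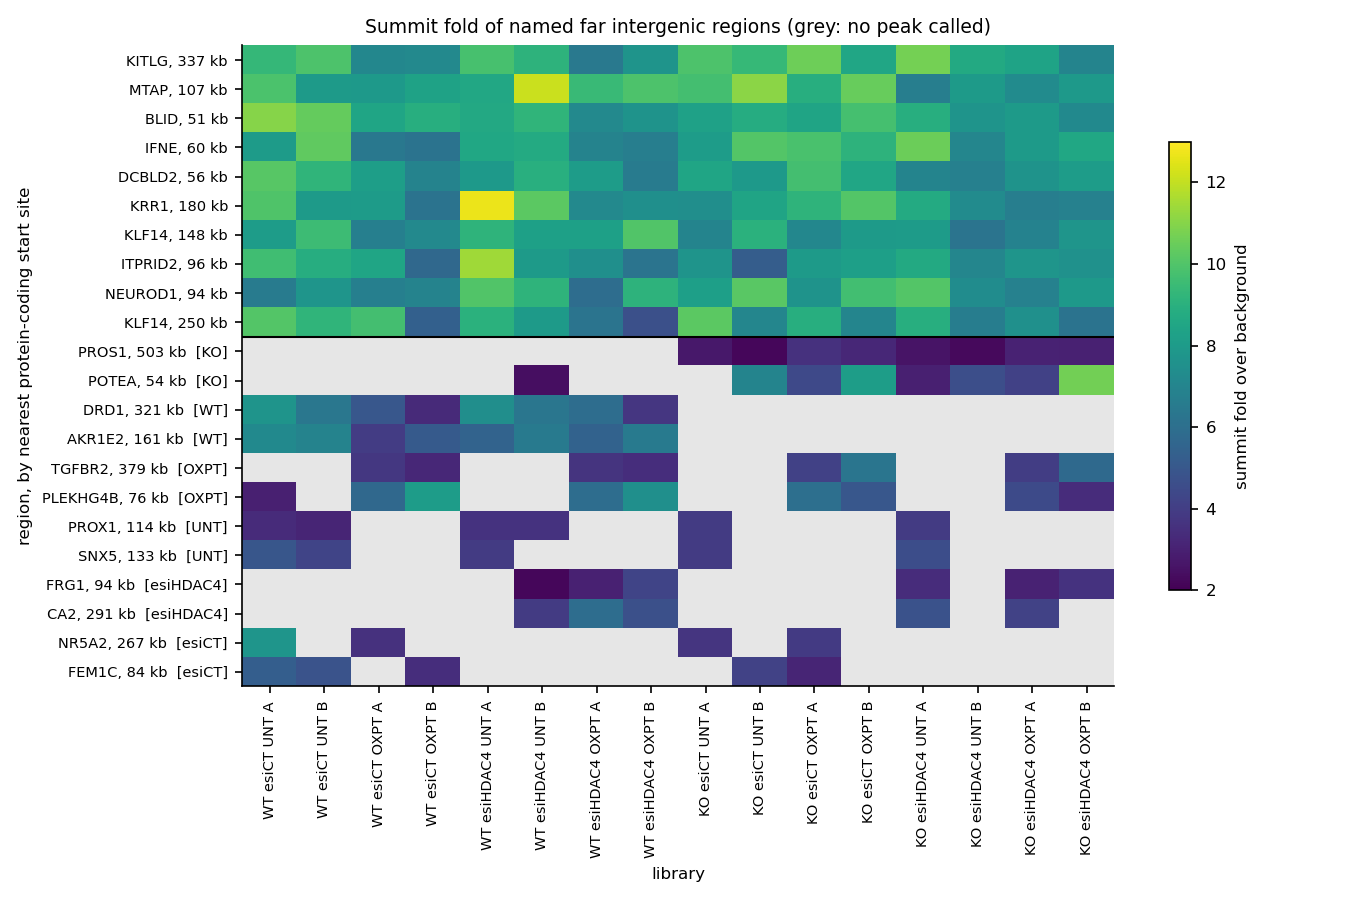
Summit fold over background (colour) in each of the 16 libraries (columns) for the 10 members called in most libraries (above the line) and for the members with the smallest presence p in each direction (below, direction in brackets); grey marks libraries without a peak. Rows above the line have no grey cell, and the 2 rows marked WT are grey in all 8 KO libraries.

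The number of members called in a library differed by genotype. The whole lists also ranged lower in KO, without a test, with 7840 to 24747 regions called in WT libraries and 1131 to 17609 in KO. A lower number of calls in KO is therefore not particular to members, whose share of the lists is given below. The 8 WT libraries called between 1326 and 3420 members with a median of 2253, and the 8 KO libraries between 285 and 2506 with a median of 1197, so that the ranges overlapped. The difference in log2 number was −1.05 (two-sided exact permutation test within letters, p = 0.00735, Benjamini-Hochberg adjusted p = 0.0417 over 16 tests). Within replicate A it was −0.27 (exact p = 0.371) and within replicate B −1.83 (exact p = 0.0286, the smallest the design allows). Depth moved with genotype in replicate B. The library floor, the 1st percentile of the background estimated at the summits of a library's peaks, served as an index of depth. It ranged from 1.97 to 3.07 reads in the WT B libraries and from 1.0203 to 1.51 in the KO B libraries. In replicate A it ranged from 1.65 to 2.199 in WT and from 1.52 to 2.89 in KO. After all libraries were scaled to the shallowest depth the difference was −0.31 (exact permutation, adjusted p = 0.492), and with lists shortened to equal length it was 0.14 (adjusted p = 0.236). The call was also lost without any 1 of the 16 libraries, where the difference ranged from −1.18 to −0.85 (exact permutation, adjusted p from 0.0575 to 0.0849). The adjustment runs over 16 tests together, and with 1 pair fewer the paired tests among them have a higher smallest p. That loss is therefore in part set by the design. No call was made for OXPT against UNT, with a log2 difference of −0.04 (exact p = 0.929), for esiHDAC4 against esiCT, with −0.24 (exact p = 0.617), or for replicate B against A, with −0.79 (exact sign-flip p = 0.0938).

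**Figure D3:**
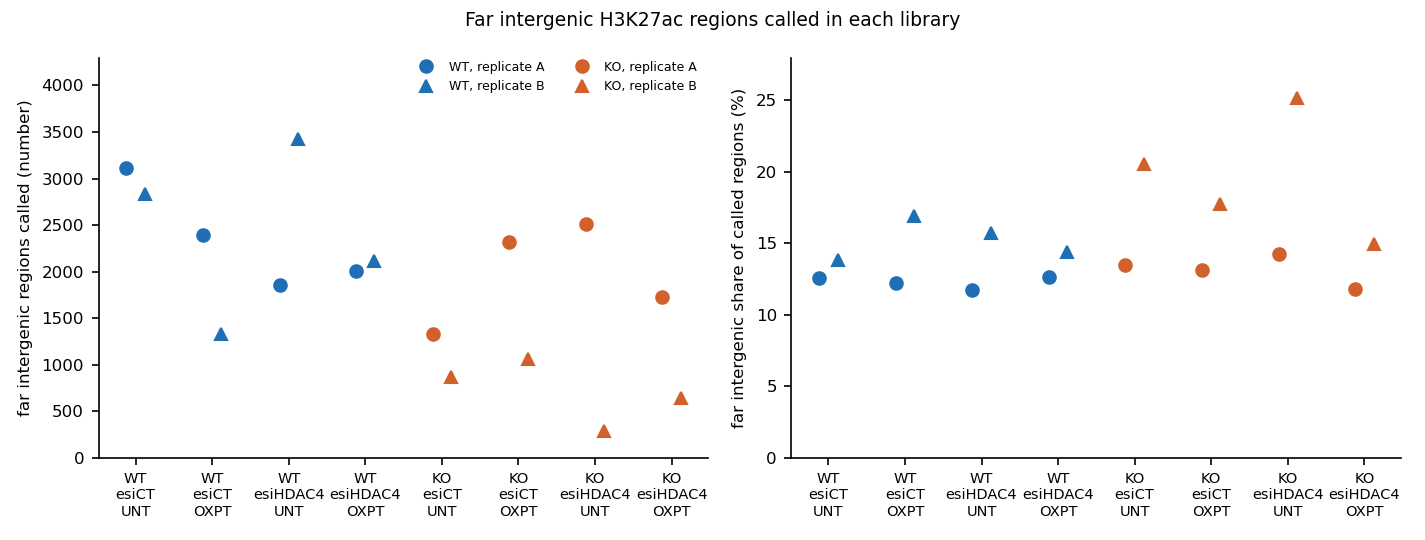
Number of far intergenic regions called (left) and their percent among all regions called (right) in each library, by group, with WT blue, KO orange, replicate A circles and replicate B triangles. KO esiHDAC4 UNT replicate B has the fewest regions (285) and the highest share (25.2%).

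The share of a library's regions that were far intergenic was higher in replicate B. It was 12.6% and 13.8% in WT esiCT UNT (A and B), 12.2% and 16.9% in WT esiCT OXPT, 11.8% and 15.7% in WT esiHDAC4 UNT, and 12.7% and 14.4% in WT esiHDAC4 OXPT. In KO it was 13.5% and 20.5% in esiCT UNT, 13.2% and 17.8% in esiCT OXPT, 14.2% and 25.2% in esiHDAC4 UNT, and 11.8% and 15.0% in esiHDAC4 OXPT. B was above A in 8 of 8 groups, by 4.67 percentage points ± 3.13 (SD, n = 8 pairs; exact sign-flip permutation test, p = 0.00781, the smallest it can give, adjusted p = 0.0417). Without any 1 library the 7 remaining pairs could not pass the threshold, and with lncRNA gene bodies excluded the call was lost (exact permutation, adjusted p = 0.0522). KO exceeded WT by 2.64 points (exact permutation p = 0.0269, adjusted p = 0.108), with 0.87 within A and 4.40 within B, and this did not pass. With lists of equal length the difference was 3.73 points and passed (exact permutation, adjusted p = 0.0417), as it did when high-background regions were left out as well, with 3.46 points (adjusted p = 0.0479). OXPT and UNT differed by −1.68 points (exact p = 0.268) and esiHDAC4 and esiCT by 0.04 (exact p = 0.980).

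The share was higher where fewer regions were called. Over 16 libraries Pearson's r between the share and the log2 number of all regions called was −0.871 (permutation p = 0.00022, adjusted p = 0.00132 over 6 relations) and Spearman's rho −0.574 (p = 0.0228, adjusted p = 0.0683), and without the 2 libraries farthest from the median r was −0.580. Within replicate B r was −0.860 (exact permutation p = 0.00647) and rho −0.738 (p = 0.0458), and within replicate A r was −0.159 (exact permutation p = 0.718) and rho 0.024 (p = 0.977), so the relation did not hold within A. Against log2 background depth, r was −0.639 over all (permutation p = 0.00636), rho −0.424 (p = 0.102), and r −0.278 without the 2 farthest libraries. Within B it was −0.798 with rho −0.857, and within A −0.143 with rho 0.071 (exact permutation p = 0.0096, 0.0107, 0.736 and 0.882).

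Member peaks were narrower in replicate B, and so were other peaks. Gene-body distal and near intergenic peaks had a lower median width in B in every group. Start-site peaks did so in all groups but WT esiHDAC4 UNT (597 bp in A and 606 bp in B). Relative to start-site peaks, member width was higher in B, by a log2 difference of 0.28 (exact sign-flip permutation test, adjusted p = 0.1). The median width of member peaks ranged from 447 to 530 bp in A and from 343 to 511 bp in B. B was below A in 8 of 8 groups (log2 difference −0.21 ± 0.10 SD, n = 8 pairs, exact sign-flip permutation test, p = 0.00781, adjusted p = 0.0417). The call was lost without any 1 of the 16 libraries (exact permutation, adjusted p from 0.0575 to 0.0849) and with lncRNA gene bodies excluded (0.0522). Leaving out a library leaves 1 pair fewer, for which the smallest possible p is higher, so the former loss is in part set by the design. Median widths for KO against WT (−0.12, exact permutation p = 0.0445) and esiHDAC4 against esiCT (−0.13, exact p = 0.0400) both had an adjusted p of 0.109, and OXPT against UNT differed by 0.01 (exact p = 0.886). That last mean joins opposite signs. OXPT minus UNT was positive in every KO pair (0.058 to 0.20) and negative in every WT pair (−0.23 to −0.023), which was not tested. The median summit fold was between 3.58 and 4.92 in all libraries. Its log2 difference was 0.12 for KO against WT (exact permutation p = 0.0478, adjusted p = 0.109; −0.03 within A and 0.27 within B), −0.03 for OXPT against UNT (exact p = 0.614), −0.05 for esiHDAC4 against esiCT (exact p = 0.482) and 0.09 for B against A (exact p = 0.266). No fold comparison passed.

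Set beside start-site regions of the same libraries, members were narrower and weaker. The median width of member peaks was 462 bp ± 51.2 (SD, n = 16 libraries) and that of start-site peaks 539 bp ± 141, a log2 difference of −0.18 (exact sign-flip permutation test, adjusted p = 0.0209 over 9 tests, wider in 5 of 16 libraries). When lists were shortened to equal length this turned to 0.50 (exact sign-flip permutation, adjusted p = 9.16e-05), so the order of the widths depends on how far down the lists go. The median fold was 4.05 ± 0.37 for members and 4.29 ± 0.30 for start sites, a log2 difference of −0.09 (exact permutation, adjusted p = 0.00179), which became −0.01 (adjusted p = 0.234) with lists of equal length. Members differed from the other distal classes by less. Their log2 width differed by −0.01 from gene-body distal (adjusted p = 0.574) and by 0.05 from near intergenic peaks (exact permutation, adjusted p = 0.0475), the latter call being lost without any of 12 single libraries. Their log2 fold exceeded both by 0.01 (exact permutation, adjusted p = 0.131 and 0.0904).

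Members lay in SEs more often than regions of the other classes. In each library 25.01% ± 7.35 (SD, n = 16) of the members called lay in an SE of that library, beside 20.3% ± 7.56 of gene-body distal, 19.3% ± 7.13 of near intergenic and 1.95% ± 0.473 of start-site regions. The differences were 4.75, 5.68 and 23.1 percentage points, in 15, 16 and 16 of 16 libraries (exact sign-flip permutation test, adjusted p = 0.000275, 0.000137 and 0.000137). Among peaks with −log10 q of at least 10, the difference from gene-body distal regions was −1.06 points (exact permutation, adjusted p = 0.884). The lists may include SEs without H3K4me1, a mark of enhancers, and the sources used here do not give whether peaks at start sites were left out of SE calling.

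**Figure D4:**
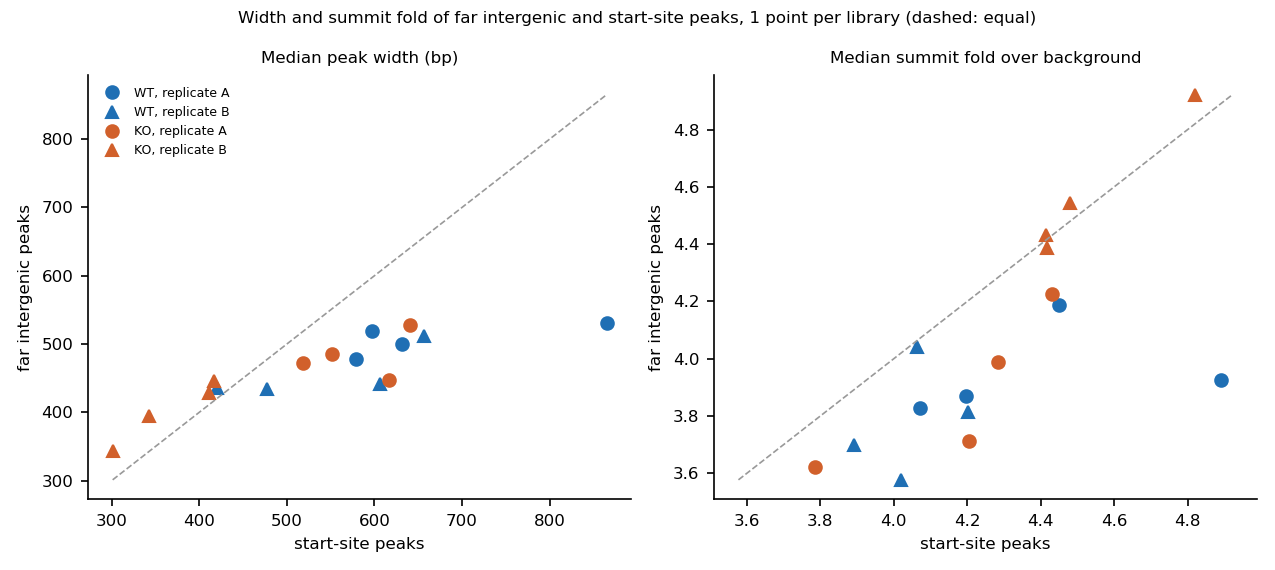
Median peak width (left, bp) and median summit fold (right) of far intergenic peaks against start-site peaks, 1 point per library, with WT blue, KO orange, replicate A circles, replicate B triangles and a dashed line of equality. In width 5 of 16 libraries lie above the line, and in fold 3 of 16.

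Each region called in 3 to 13 libraries was tested for a difference in presence by an exact conditional test (two-sided, letters as strata), which covered 20090 regions of the series and 2413 members. After Benjamini-Hochberg adjustment 0 regions (0%) passed in any of the 3 comparisons, and the smallest adjusted p among members was 0.208 for genotype and 1 for the other comparisons. The exact conditional test cannot give p below 0.000408, so over 20090 regions a single region cannot pass by itself. Passing needs many regions at low p together, and a high adjusted p does not show that presence was alike. At an unadjusted p under 0.05, 307 members were called more often in WT and 9 in KO, or 12.7% and 0.373% of the members tested, against a background of 13.6% and 0.0747% of all regions tested. The excess in WT was thus near the background. With lists of equal length the counts turned to 11 in WT and 20 in KO, and after scaling to the shallowest depth 34 were more often called in WT. The shares over all regions in these settings are not given here, so these counts are not read as a result about members. For treatment, 62 members (2.57%) were called more often in OXPT and 28 (1.16%) in UNT, against 1.43% and 0.692% of all regions. The share more often in OXPT was 2.66% of gene-body distal, 3.26% of near intergenic and 0.0503% of start-site regions, which places members near the other distal classes. Of the 62, 18 lay in an SE and 5 had a high background. For esiRNA, 3 members (0.124%) were called more often in esiHDAC4 and 8 (0.332%) in esiCT, against 0.0348% and 0.184% of all regions.

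Of the members, 7 were called in all 8 WT and 0 KO libraries, against 29 regions of the series (0.144% of those tested). The MANCR member, chr10:4661599-4664970, lay 161 kb from AKR1E2, an aldo-keto reductase gene, within MANCR and LINC00705, both lncRNA genes. Its fold was 7.20 and 6.91 in WT esiCT UNT (A and B), 3.94 and 5.12 in WT esiCT OXPT, 5.49 and 6.54 in WT esiHDAC4 UNT, and 5.45 and 6.48 in WT esiHDAC4 OXPT, and no peak was called in any KO library. Its exact p was 0.000408, the smallest the test can give, with an adjusted p of 0.208. Among the 26 other regions within 100 kb, all of them members, WT libraries called 3 to 11 and KO libraries 0 to 4. The library floor, an index of depth over all peaks of a library, ranged from 1.65 to 3.07 reads in the WT libraries. In the KO libraries it ranged from 1.0203 to 2.89, and the part of depth in the missing KO calls was not tested.

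Another 3 of the 7 lay nearest to DRD1, a dopamine receptor gene, in one stretch of chromosome 5. They were chr5:175121144-175123592 with a fold of 3.31 to 7.69 over the 8 WT libraries (median 6.13), chr5:175344782-175348625 with 3.46 to 6.04 (median 4.78) and chr5:175379036-175380556 with 3.796 to 6.42 (median 4.35). Around the first, WT libraries called 1 to 5 and KO libraries 0 to 1 of 12 other regions within 100 kb. The central 25 bases of its window had 4208 copies in hg38, a repeated sequence, whereas those of the others had 1. In total, 7 of the 307 members more often called in WT lay nearest to DRD1 and 7 nearest to DIPK2B. The remaining members were chr3:30342833-30344098 beside TGFBR2 with a fold of 2.93 to 5.60, chr18:31229596-31230614 beside DSC1, a desmosomal cadherin gene, with 3.15 to 4.92, and chr12:7554972-7557006 beside CD163 with 3.302 to 5.21.

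In the other direction 1 member was called in all 8 KO and 0 WT libraries, the 1 such region of the series (0.00498%). It lay at chr3:93470391-93470830, 503 kb from PROS1. Its fold was only 2.21 to 3.57 with a median of 2.86, while its summits held 9197 to 23373 reads over a background of 4031 to 7631 reads, a median of 3309 times the library floor. It had 0 other regions within 100 kb. The next member, chr8:43237624-43238387 beside POTEA, was called in 7 KO libraries and 1 WT library (exact conditional p = 0.0102, adjusted p = 0.258), with a fold of 2.41 to 10.6.

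For oxaliplatin, 1 member was called in all 8 OXPT and 0 UNT libraries, among 5 such regions of the series (0.0249%). It lay at chr3:30226859-30228034, 379 kb from TGFBR2, which encodes a receptor of transforming growth factor beta. Its fold in OXPT libraries was 3.796 and 3.23 in WT esiCT (A and B), 3.65 and 3.43 in WT esiHDAC4, 4.14 and 6.29 in KO esiCT, and 3.99 and 5.74 in KO esiHDAC4, with 14 to 20 reads at the summit. KO exceeded WT in every pair, and KO B exceeded KO A, in libraries whose background under this peak was lower. The exact p was 0.000408 and the adjusted p 1. Of 13 other regions within 100 kb, all members, OXPT libraries called 2 to 10 and UNT libraries 0 to 6. The other member by the naming rule, chr5:13374-15763 beside PLEKHG4B near the end of chromosome 5, was called in 8 OXPT libraries with a fold of 3.38 to 8.08 and in 1 UNT library with 2.97 (exact p = 0.00204, adjusted p = 1).

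A further 6 members were called in 7 OXPT and 0 UNT libraries, against 20 regions of the series (0.0996% of those tested), and 3 more in 8 and 1, which with the PLEKHG4B member makes 4 against 8 (0.0398%). Each had an exact p of 0.00204 and an adjusted p of 1. They fall outside the naming rule and were picked after their values were seen. The former lay nearest to BCKDHB (median fold 5.19), AKR1D1 (4.56), BTG3 (4.37), FAM3C (4.32), HDAC4 (4.03) and RAP2B (3.99), and the latter to FBXO47, PLAC8 and FOXL1. The HDAC4 member, chr2:239705100-239708141, lay 304 kb from the start of the gene silenced in the esiHDAC4 groups. In the UNT direction, PROX1, a homeobox gene, was nearest to a member called in 6 UNT and 0 OXPT libraries (chr1:214102035-214102966, fold 3.16 to 3.93), and SNX5 to one called in 5 and 0 (chr20:17835164-17836090, fold 3.90 to 4.96), with exact p of 0.00612 and 0.0143.

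For HDAC4 silencing few members stood out. The member beside FRG1, chr4:189846085-189847090 in FRG1-DT, was called in 6 esiHDAC4 and 0 esiCT libraries with a fold of 2.197 to 4.27 over a background 3.79 times the floor, and that beside CA2, a carbonic anhydrase gene, at chr8:85755466-85755774, in 5 and 0 with a fold of 3.92 to 5.94 (exact p = 0.0102 and 0.0306). In the esiCT direction the member beside NR5A2, chr1:199759668-199760746, was called in 4 esiCT and 0 esiHDAC4 libraries with a fold of 3.57 to 7.75, and that beside FEM1C, chr5:115459042-115460456, in 5 and 0 with 3.16 to 5.28 (exact p = 0.0286 and 0.0306). All of these had an adjusted p of 1.

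Protein-coding deserts as the rule defines them comprised 4277 stretches with 1294 Mb in total, or 42.7% of chromosomes 1 to 22 and X, and held 8.77 members per Mb. Of these, 618 were at least 500 kb long, and 138 of the long ones had at least 10 members. The densest by members per Mb was C8orf90 to TSNARE1 on chromosome 8, at chr8:141564672-142212079, with 80 members in 647 kb (124 per Mb). Only 19 of its members were called in 2 or more libraries and 1 in 8 or more, and their median fold was 3.27. Its calls ranged from 0 in WT esiCT OXPT B, KO esiCT UNT B and KO esiCT OXPT B to 26 in KO esiHDAC4 UNT A.

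NYAP2 to IRS1 on chromosome 2, at chr2:225729888-226731311, came second. Among the 6 densest it held the largest number of members called in 8 or more libraries. By share it did not lead, as DUSP4 to SARAF, named below, had 10 of 38 in 8 or more. IRS1 encodes an insulin receptor substrate. This desert had 113 members in 1001 kb (113 per Mb), 52 of them called in 2 or more libraries, 17 in 8 or more and 6 in all 16, and 95 lay in an SE of some library. It was the densest when only members called in 2 or more libraries counted. WT libraries called 20 to 60 of its members with a median of 28.5, and KO libraries 6 to 25 with a median of 17.5, and as a share of the library's members these medians were 1.73% and 1.38%. Among WT libraries, UNT called 53 and 53 in esiCT (A and B) and 33 and 60 in esiHDAC4, and OXPT called 23 and 24 in esiCT and 20 and 23 in esiHDAC4, in libraries that called 1855 to 3420 and 1326 to 2398 members in all. These WT counts did not overlap between UNT and OXPT, but as a share of the library's members they were 1.70% to 1.87% and 0.959% to 1.81%, which overlapped. In KO, UNT called 6 to 25 and OXPT 9 to 23, which overlapped.

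DIPK2B to KRBOX4, at chrX:45250877-46397296, held 81 members (70.7 per Mb), 49 of them in 2 or more libraries and 3 in all 16, together with MIR222HG, a lncRNA gene that hosts a microRNA cluster. The WT libraries called 46 and 41 in esiCT UNT (A and B), 23 and 17 in esiCT OXPT, 26 and 49 in esiHDAC4 UNT, and 25 and 30 in esiHDAC4 OXPT. The KO libraries called 10 and 12 in esiCT UNT, 14 and 11 in esiCT OXPT, 15 and 4 in esiHDAC4 UNT, and 14 and 6 in esiHDAC4 OXPT. Every WT library was above every KO library, although the number of all members called overlapped between genotypes. As a share of each library's members the ranges were 0.959% to 1.48% in WT and 0.599% to 1.40% in KO, and these overlapped.

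The others of the 6 densest were DUSP4 to SARAF, at chr8:29400685-30033063, with 38 members (60.1 per Mb), where DUSP4 encodes a MAP kinase phosphatase, TRIB1 to LRATD2, at chr8:125480359-126508477, with 59 members (57.4 per Mb), 4 of them in all 16 libraries, and KLF6 to AKR1E2, at chr10:3835210-4776206, with 52 members (55.3 per Mb), none of them in all 16. The last is the desert of the MANCR member, and KLF6 encodes a Krüppel-like transcription factor. WT libraries called 9 to 25 of its members and KO libraries 0 to 9, so that the ranges met at 9, and as a share of the library's members they were 0.448% to 0.803% and 0% to 0.676%, which overlapped. With members called in at least 2 libraries, DDHD1 to BMP4 on chromosome 14 took the place of KLF6 to AKR1E2, with 18 such members beside BMP4, a bone morphogenetic protein gene.

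**Figure D5:**
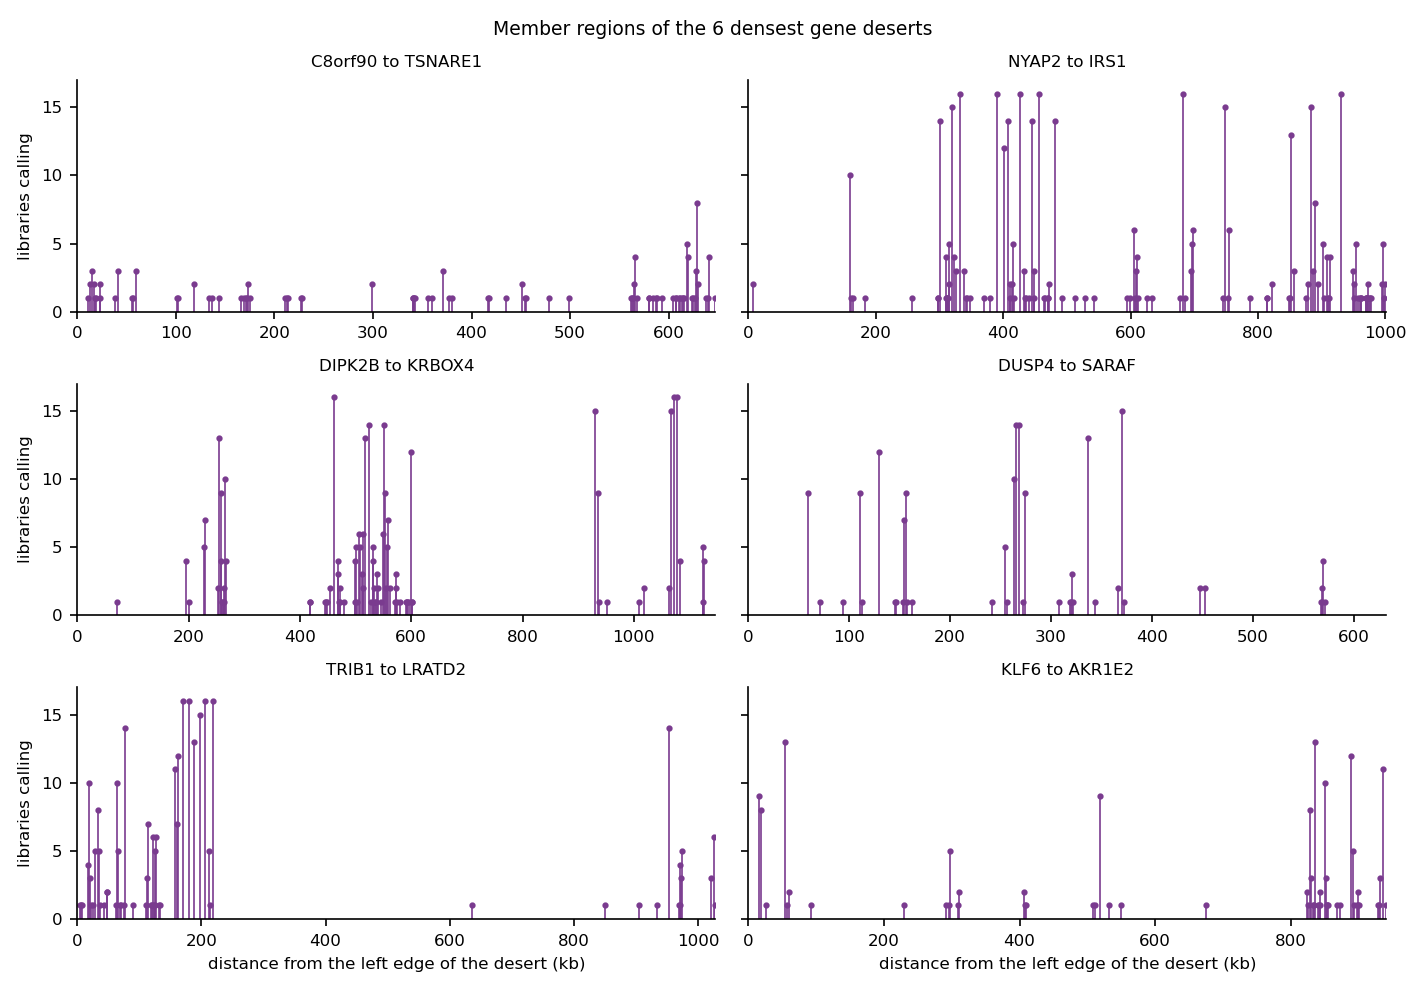
Member regions of the 6 densest gene deserts, by distance from the left edge of the desert (kb) and number of libraries that called each. NYAP2 to IRS1 has 6 members in all 16 libraries, and C8orf90 to TSNARE1 has 1 member in 8 or more.

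The deserts with most members were other stretches, wide and beside centromeres. Among them SPATA31A6 to SPATA31A5 on chromosome 9 held 159 members, SRGAP2C to H3-7 on chromosome 1 held 148, ZNF254 to UQCRFS1 on chromosome 19 held 136, and PLD5P1 to ZNF33B on chromosome 10 held 121. Of the 18.6 Mb from SPATA31A6 to SPATA31A5, 15128 kb are unknown bases in hg38. High-background members, whose summit background was over 5 times the library floor, numbered 19, 13, 3 and 13 in these deserts. In the whole set 138 members (1.22%) had a high background, out of 167 such regions in the series, and they fell in 40 clusters. Their median fold was 2.48, beside 3.62 for the other members, and the central 25 bases occurred at 1 place in the genome for 10.1% of them. The 6 densest deserts held 0 such regions.

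Members within 1 kb of a lncRNA start formed 713 of the 11356 (6.28%), beside 9.69% of all regions and 8.81% of near intergenic ones. A lncRNA gene body was overlapped by 3993 members (35.2%), beside 19.9% of all regions and 24.1% of near intergenic ones. Those called in all 16 libraries with the highest median fold, after MIR31HG and LINC00973, included MSRB3-AS1 with 7.59, LINC00963 with 6.70 and LINC03061 with 6.46. The last lay 515 kb from IRS2, another insulin receptor substrate gene, and the central 25 bases of its window had 222 copies. LINC02964 in the TRIB1 desert had 5.24 and LINC01186 in the DIPK2B desert 5.21.

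The nearest protein-coding gene was 1 of 2427 genes. Of 20 intestinal and WNT genes, 10 were nearest to a member, with 138 members in all, or 1.22% of members beside 0.474% of all regions. SOX9, a transcription factor of intestinal crypts, had 60 members between 135 and 899 kb away, 11 of them in 8 or more libraries and 32 in an SE. MYC had 32 members between 57.5 and 1011 kb away, 6 of them in 8 or more libraries and at least 1 in all 16. KLF5, a crypt transcription factor gene, had 20 members with 4 in 8 or more, FOXA2 had 13 with 2, and AXIN2, a WNT feedback gene, had 4 with 0. CDX1, CDX2, HNF4A, ASCL2, LGR5, RNF43, ZNRF3, EPHB2 and VIL1 were among those with none. Genes in wide deserts collect more members, so such counts also follow the space around a gene.

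Of 7 FBXW7 substrate genes, 4 were nearest to 65 members (0.572% beside 0.194% of all regions), 32 of them at MYC, 20 at KLF5, 8 at JUN and 5 at NOTCH1, with 10 in 8 or more libraries. CCNE1, MCL1 and MTOR had none. MYC and KLF5 belong to both lists. Of 7 growth factor receptor and ligand genes, 3 had 9 members (0.0793% beside 0.170% of all regions), led by AREG with 6, of which 1 was called in all 16 libraries. CCND1, the cyclin D1 gene, had 14, all in 1 library each. Of 7 AP-1 genes, 3 had 11 members (0.0969% beside 0.119%). Of 11 p53 target genes only PMAIP1 had any, 8 in number (0.0704% beside 0.141%), none in 8 or more libraries.

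Members were poorer in G and C than the other classes. The median GC content of the 300 bp windows was 44%, beside 60.3% for start-site, 48.3% for gene-body distal and 50.0% for near intergenic regions. Windows 5 kb to the sides had 42.2% for members, 45.2% for start-site, 46.3% for gene-body distal and 47.7% for near intergenic regions. The FOXA letters occurred in 27.7% of member windows, beside 20.8% of all region windows and 27.9% of the windows to the sides of members. The TCF/LEF letters occurred in 10.5%, 8.46% and 11.3%, the AP-1 letters in 9.40%, 7.84% and 9.07%, the GATA letters in 16.2%, 13.3% and 17.5%, and the TEAD letters in 16.2%, 14.8% and 16.96%, in the same order. For these motifs members were above all regions and within 2 percentage points of their own surroundings. All regions include the start-site windows, where the AP-1 letters occurred in 4.36% and the GATA letters in 8.18%. Gene-body distal windows lay closer to members than all regions did, with FOXA 21.7%, TCF/LEF 9.58%, AP-1 8.90%, GATA 15.3% and TEAD 14.9%. Near intergenic windows had 19.5%, 7.88%, 8.71%, 12.975% and 15.8%, in the same order. The KLF/SP letters occurred in 7.06% of member windows, 5.09% of the windows to their sides and 43.2% of start-site windows. RUNX letters occurred in 17.7% of member windows, HNF4A in 1.39%, MEF2 in 5.52% and CTCF in 0.0528%. Gene-body distal windows had 19.2%, 1.47%, 5.79% and 0.0944%, and near intergenic windows 20.1%, 1.19%, 4.59% and 0.122%. Windows to the sides of members had 19.1%, 1.34%, 6.48% and 0.0528%. The full p53 site occurred in 0.229% (26 members), beside 0.138% of all regions and 0.0440% of the windows to the sides of members. Among members in 8 or more libraries the full p53 site occurred in 0 of 1071. The central 25 bases occurred at 1 place in hg38 for 79.6% of the members in 8 or more libraries, beside 88.0% of gene-body distal, 83.0% of near intergenic and 96.0% of start-site regions of that recurrence.

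Calls of members agreed in part between replicates. The Jaccard index, the number of members called in both libraries divided by the number called in either, averaged 0.257 within groups and 0.219 between an A and a B library of different groups (one-sided exact permutation test over all assignments of the B libraries to groups, p = 0.000198). It was highest in WT esiCT UNT at 0.376, where 1627 members were shared, 52.2% of A and 57.4% of B, and lowest in KO esiHDAC4 UNT at 0.0743, where 193 were shared, 7.70% of A and 67.7% of B. Within groups the index averaged 0.356 for start-site, 0.244 for gene-body distal and 0.234 for near intergenic regions.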

How the data were processed

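H3K27ac ChIP-seq was measured in 16 libraries, assigned to 8 groups from the labels. The authors used Trimmomatic 0.39 for trimming and Bowtie2 2.4.4 for alignment to hg38, removed duplicates with SAMtools 1.18 and called peaks per library with MACS2 2.2.7.1, and the deposited SE lists (ROSE) hold positions only. In the deposited peak lists the fold is the ratio of summit pileup to local background, p- and q-values are given as −log10, and the score is an integer made from q. The 4 input samples were not used. Left out were 534 of 272083 peaks and 28 SEs on other contigs.

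Start sites and gene bodies came from GENCODE version 44 and the sequences from the hg38 genome. Reads at the summit and background depth were solved from fold and p, because the lists hold no read totals, and the method was tested on simulated data. A solution was accepted when the reads lay within 0.01 of a whole number. In WT esiCT UNT B the pileup was taken as whole reads scaled by 0.968, with a tolerance of 0.01 on −log10 p. Numbers, shares, widths and folds gave 1 value per library and were compared by exact permutation within the replicate letters (4900 arrangements, smallest p 0.000408), by sign flips over 8 pairs (256) or over 16 libraries (65536), following the study's use of replicate in its design. Presence used an exact conditional test stratified by letter. Benjamini-Hochberg adjustment used a threshold of 0.05. Analyses used Python 3.11.15, NumPy 2.4.6, SciPy 1.17.1 and pandas 2.3.3.

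Named regions were the 10 called in most libraries (ties by median fold), the 2 with the smallest presence p in each direction (ties by difference in libraries, then fold), the 3 widest, those at the 50 kb limit, the 6 densest deserts of at least 500 kb with at least 10 members and the 5 with most members, of which 1 is not reported here. Members, lists and tests were chosen with earlier results of these data known. Copies of the central 25 bases (for regions in 8 or more libraries and high-background ones), windows 5 kb to the sides, the counts of presence patterns and the setting apart of CCND1 from the growth factor list were added after the data were seen. The share of repeat-masked bases was not computed, because the reference used here does not mark them. Alternatives are given in the closing section.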

Additional observations from a re-analysis of the deposited data

Results flagged for a closer look

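For number and share, in 2 places both pairs of one setting moved one way and both pairs of another setting the opposite way, and neither difference was tested. The log2 number of far intergenic regions, OXPT minus UNT, was 0.546 within KO esiCT (mean of the A and B pairs, 0.80 and 0.29) and −0.737 within WT esiCT (−0.38 and −1.10). The whole lists moved the same way. From UNT to OXPT, all regions called went from 9873 to 17609 (A) and 4229 to 5981 (B) in KO esiCT. In WT esiCT they went from 24747 to 19630 and 20523 to 7840, so this movement is not particular to members. The far intergenic share, esiHDAC4 minus esiCT, was 2.72 percentage points within KO UNT (0.77 and 4.67) and −2.07 within KO OXPT (−1.33 and −2.80). Median peak width also moved in opposite ways, likewise without a test. Its log2 difference, OXPT minus UNT, was 0.16 and 0.058 within KO esiCT (A and B) and 0.12 and 0.20 within KO esiHDAC4. In WT it was −0.084 and −0.23 within esiCT and −0.12 and −0.023 within esiHDAC4. Within 2 pairs an exact permutation test cannot give p below 0.5. In KO esiCT UNT and KO esiCT OXPT the library floor was 1.52 and 2.13 reads in replicate A, and 1.502 and 1.29 in replicate B. Of the 8 sets of libraries examined for a sample that stood apart from the others, 0 had one, where chance gives about 1 in 20. The small sets limit this check, and it does not show that the libraries are alike. KO esiHDAC4 UNT B called 285 members among 1131 regions, beside 2506 among 17588 in KO esiHDAC4 UNT A.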

How the results depend on the processing

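Depth sets which weak peaks are called, so a region without a call was not detected at that depth, and lists of unequal length underlie every count. Values below are log2 differences except shares (percentage points) and counts, and adjusted p-values are from exact permutation tests. Counts of members more often called stand without the share over all regions in that setting, and are not read as results about members.

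With lists of equal length, KO minus WT was 0.14 for number, 3.73 for share (exact permutation, adjusted p = 0.0417, now past the threshold) and −0.11 for fold. B minus A was 0.43 for number, −0.15 for fold and −0.90 for width, esiHDAC4 minus esiCT −0.48 for share, and OXPT minus UNT −0.23 for width. There, members minus start-site regions were 0.50 in width and −0.0096 in fold, minus gene-body distal 0.035 and −0.0062, and minus near intergenic −0.0089 in fold, and members more often called numbered 20 in KO, 11 in WT, 7 in OXPT, 2 in UNT, 0 in esiHDAC4 and 1 in esiCT. Leaving out high-background regions as well, an alternative chosen after seeing the data, gave 0.13, 3.46 (exact permutation, adjusted p = 0.0479) and −0.11 for KO minus WT, 0.45, −0.15 and −0.95 for B minus A, −0.46 for the esiHDAC4 share and −0.23 for the OXPT width. Leaving them out alone gave −0.020 for the esiHDAC4 share, 0.0029 in width and 0.014 in fold against gene-body distal regions and 0.017 in fold against near intergenic ones, both folds now past the threshold (exact permutation, adjusted p = 0.0176 and 0.0137).

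Depth scaled, KO minus WT was −0.31 for number and −0.063 for fold, B minus A −0.52 for width, −0.020 for fold and 7.06 for share, esiHDAC4 minus esiCT 0.057 for width and 0.017 for fold, and OXPT minus UNT 0.50 for share, and members more often called numbered 34 in WT, 8 in OXPT, 0 in esiHDAC4 and 16 in esiCT, these counts chosen after seeing the data. With −log10 q of at least 10, KO minus WT was −1.27 for number and −0.0025 for fold, OXPT minus UNT 0.077 for fold, −0.023 for width and 2.46 for share, B minus A −0.10 for fold, −0.78 for width and 17.4 for share, members minus gene-body distal −0.096 in fold and −1.06 in SE share, and members more often called 1 in KO, 20 in WT, 1 in OXPT, 7 in UNT, 0 in esiHDAC4 and 2 in esiCT. Relative to start sites, width was 0.24 for KO minus WT, 0.28 for B minus A and 0.035 for esiHDAC4 minus esiCT, and fold 0.060 for OXPT minus UNT and 0.011 for esiHDAC4 minus esiCT. At 100 kb, the esiHDAC4 share was −0.38 and the width against near intergenic regions −0.012. With lncRNA gene bodies excluded, KO minus WT was −1.03 for number and B minus A −0.20 for width and 2.86 for share (exact permutation, each adjusted p = 0.0522), the OXPT width −8.51e-05 and the esiHDAC4 share −0.028. With regions in at least 2 libraries, the width was 0.020 against gene-body distal and −0.0076 against start-site regions, the fold 0.018, 0.019 and −0.040 against gene-body distal, near intergenic and start-site regions, the OXPT width −0.044 and number 0.046, the esiHDAC4 share −0.23, and the first deserts held 19 and 92 members. Where calls changed, the cause was not tested.

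With no replicate block the KO minus WT number of −1.05 had an adjusted p of 0.0796 (exact permutation). The block changed no other call.

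Leaving out 1 library at a time, ranges were −1.18 to −0.85 for the KO minus WT number, 3.78 to 5.16 for the B minus A share and −0.23 to −0.19 for the B minus A width, all lost in each of 16 cases. The B minus A tests then had 1 pair fewer and a higher smallest p, which also enters the joint adjustment. Signs turned within −0.069 to 0.0073 (OXPT fold), −0.042 to 0.054 (OXPT width), −0.40 to 0.20 (OXPT number), −0.52 to 0.078 (esiHDAC4 number) and −1.23 to 0.59 (esiHDAC4 share). The KO minus WT share ranged from 1.71 to 3.41 and passed without KO esiHDAC4 OXPT B (3.41). Against near intergenic regions width ranged from 0.040 to 0.061, called only without WT esiCT UNT A, WT esiCT UNT B, WT esiHDAC4 UNT B or KO esiHDAC4 UNT A, and fold from 0.0087 to 0.014, called without WT esiCT UNT A or WT esiHDAC4 UNT B. Against gene-body distal regions fold ranged from 0.0065 to 0.010, called without the latter. Merging within 500 bp and start sites of all transcripts gave the same calls in 25 and 16 results. In a 200 bp window all 11 motif shares were lower.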
